A study of Mus musculus with 199 samples.

Results

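Spink1, Golm1, Psrc1, Erich4, Prom1, Ly6d, Sox4, Akr1b8 and Tff3 are 9 genes picked from 37713 genes of a mouse liver cancer data set because their counts were higher in liver tumours than in liver tissue. They were found in the count table by the Ensembl identifier that pairs with each symbol, and all 9 had counts. The tumours came from the DEN ALIOS model of fatty liver disease and hepatocellular carcinoma, in which a carcinogen (DEN) is combined with a fat- and sugar-rich diet (ALIOS), in male C57BL/6 mice. RNA was counted in 25 large tumours, 25 small tumours and 15 pieces of liver tissue. Liver tissue carried DEN ALIOS in its titles but "Normal" as its treatment, so whether those livers had received the model treatment cannot be told from the labels. The tumours carried no animal identity, so several could come from the same mouse, and p-values measure only the spread between these samples.

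Neutrophils had been sorted from the same model by the surface protein Ly6G and T cells by CD3, each from the liver (tumours, per the sorting protocol) and from blood. Liver neutrophils came from DEN ALIOS mice given a CXCR2 inhibitor with an anti-PD1 antibody (8 libraries, called the combination here), the CXCR2 inhibitor (10), anti-PD1 (5) or no active drug (6, called untreated, vehicle-labelled mice included); blood neutrophils came from 10, 10, 5 and 7 such mice. Liver T cells came from the same 4 arms in the same order (5, 6, 5 and 6 libraries) and blood T cells likewise (5, 6, 5 and 7). Mice without DEN ALIOS gave T cells after the CXCR2 inhibitor (6 liver and 6 blood) or PBS (8 and 8). Some mice of the CXCR2 inhibitor arms were labelled as also given the isotype control of the antibody.

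The genes belong to no single pathway. Spink1 is a secreted trypsin inhibitor first known from the pancreas, Tff3 a secreted trefoil peptide of mucus-producing goblet cells, and Golm1 a Golgi membrane protein whose cleaved form is measured in serum in liver disease. Prom1 (CD133) is a membrane glycoprotein of cell protrusions that marks bile duct and progenitor-like liver cells, and Ly6d is a surface protein of the LY6 family, known from B-lineage progenitors and keratinocytes. Psrc1 binds microtubules of the mitotic spindle, Sox4 is a SOXC transcription factor induced by TGF-beta, and Akr1b8 is an aldo-keto reductase that reduces reactive aldehydes. The role of Erich4, named for its glutamate-rich protein, is little described.

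In GRCm38 with GENCODE gene models, Ly6d lies at chr15:74762056-74763620 on the minus strand, Tff3 at chr17:31125306-31129646 (minus), Erich4 at chr7:25614620-25615892 (minus) and Golm1 at chr13:59634626-59675811 (minus). Psrc1 lies at chr3:108383839-108388231 on the plus strand, Prom1 at chr5:43993620-44102032 (minus), Akr1b8 at chr6:34354119-34368463 (plus) and Sox4 at chr13:28948919-28953713 (minus). The position of Spink1 is not given here. Counts were summed over exons of each gene.

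The promoter windows of Psrc1, Golm1 and Sox4 are shown because CCAAT boxes, the letters read by the factor NF-Y in many inducible and cell cycle genes, fell in them. They are RefSeq's windows before the start of transcription (build GRCm38.p6), 5′ to 3′ along the gene's strand, with bases that GENCODE places in an exon removed; capitals mark CCAAT or its reverse complement ATTGG.
Psrc1 (chr3:108383554-108383803): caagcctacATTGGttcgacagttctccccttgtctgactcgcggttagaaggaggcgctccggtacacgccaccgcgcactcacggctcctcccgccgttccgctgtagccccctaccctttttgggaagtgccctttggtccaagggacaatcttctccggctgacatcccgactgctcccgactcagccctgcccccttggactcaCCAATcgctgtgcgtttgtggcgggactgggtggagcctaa
Golm1 (chr13:59675812-59676034): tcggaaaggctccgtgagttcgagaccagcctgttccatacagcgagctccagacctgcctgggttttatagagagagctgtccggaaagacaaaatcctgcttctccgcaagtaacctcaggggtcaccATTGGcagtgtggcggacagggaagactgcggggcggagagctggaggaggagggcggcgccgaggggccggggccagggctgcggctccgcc
Sox4 (chr13:28953714-28953949): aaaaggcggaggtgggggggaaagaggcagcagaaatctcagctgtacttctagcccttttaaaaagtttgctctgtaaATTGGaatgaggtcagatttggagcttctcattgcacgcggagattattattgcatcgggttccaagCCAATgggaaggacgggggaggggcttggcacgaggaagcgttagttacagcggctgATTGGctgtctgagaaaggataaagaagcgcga
The boxes began 241 and 41 bases before the start in Psrc1, 120 bases before it in Golm1, and 171, 104 and 47 bases before it in Sox4. Over whole windows of 250 bases, bases in exons included, Golm1, Psrc1, Sox4 and Prom1 held CCAAT on either strand, 4 of the 5 genes in the RefSeq table, and Akr1b8 did not, against 33.8% of 32851 windows of all genes. The Prom1 window is not shown because all of it lies in an exon of GENCODE. Neither TTTGAA or TTCGAA (letters of the cell cycle genes homology region, found in 17.1% of windows) nor TGACNNNGC (the antioxidant response element, in 10.2%) stood in any of these 5 whole windows. Each motif was searched on both strands, and no motif holds another. These matches describe letters, not binding.

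Spink1, Psrc1 and Erich4 stood 34.0- to 51.4-fold above liver tissue in the fitted group means, and Golm1, Prom1 and Ly6d 8.44- to 12.6-fold above it. Sox4 and Tff3 stood 3.63- to 5.25-fold above it with widely overlapping libraries, and Akr1b8 differed by 1.94-fold in large and 2.17-fold in small tumours. The genes were chosen on this contrast, so the values are a description, and no test of it is given for them. For gene lists given beside them, 38.5% of all genes fitted rose in large tumours and 34.7% in small tumours by the same test. The share that fell is not given here, so nothing is read from counts of falling genes. Levels are CPM, a gene's count over each 1000000 counts assigned to genes in its library, as lowest, median and highest library of a group.

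Before the genes are taken in turn, 4 libraries stood apart in several of them. Large tumour 16 was among the 2 lowest large tumours in 8 of the 9 genes, and small tumours 2 and 22 were among the 2 lowest small tumours in 6 each, while all 3 held Alb, the albumin transcript of hepatocytes, at 168468, 115126 and 153853 CPM. Liver tissue 2 was the highest of its group in Spink1, Golm1, Prom1 and Sox4, and its bile duct transcript Krt19 and epithelial transcript Epcam were at 7.03 and 12.9 CPM. In liver tissue 8, Krt19 and Epcam were at 7.20 and 9.71 CPM, with Spink1, Golm1, Prom1 and Sox4 at 1.77, 8.08, 3.73 and 8.35 CPM. Fold changes below are given with these 4 libraries. Without them, a choice made after seeing the data, the log2 fold change of large tumours against liver tissue was 5.59 for Spink1, 3.85 for Golm1, 5.53 for Psrc1, 3.47 for Prom1 and 2.56 for Sox4, and that of small tumours was 5.84, 3.92, 5.37, 3.82 and 2.19. Erich4, Ly6d, Akr1b8 and Tff3 moved by less than 0.2 in either size. In pieces of tissue, fewer cells of a type and less RNA per cell cannot be told apart.

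Spink1 had 1.74, 87.7 and 177 CPM in large tumours and 2.67, 73.1 and 163 CPM in small tumours, against 0.540, 1.51 and 9.32 CPM in liver tissue. The groups overlapped in few libraries, since 23 of 25 large and 22 of 25 small tumours exceeded the highest liver tissue. Its log2 fold change was 5.24 ± 0.50 (standard error) in large tumours and 5.40 ± 0.50 in small tumours, the ninth and eighth highest of 14538 genes fitted. The other member of the SPINK family with enough counts to be fitted was Spink5, which fell by 1.20 in large tumours (edgeR, adjusted p = 1.80e-05). Of 10 pancreatic trypsin, chymotrypsin and elastase genes, only the elastase gene Cela1 passed the filter on low counts, with a log2 fold change of 2.20 in large tumours.

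Tff3 had 0.841, 69.3 and 389 CPM in large tumours and 3.55, 109 and 348 CPM in small tumours, against 1.28, 7.26 and 95.7 CPM in liver tissue. The overlap was wide, as 7 of 25 large and 14 of 25 small tumours exceeded the highest liver tissue, and 3 large and 1 small tumour lay below the liver tissue median. It stood 1.95 ± 0.54 above liver tissue on the log2 scale in large tumours and 2.39 ± 0.56 above it in small tumours. Small tumours 2 and 22, low in most of the other genes, held Tff3 at 221 and 348 CPM, and small tumour 22 was the highest of its group. None of the 8 goblet cell genes that accompany Tff3 in mucosa, and neither of the other trefoil genes, had enough counts to be fitted.

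Golm1 had 24.7, 97.5 and 123 CPM in large tumours and 11.6, 86.9 and 154 CPM in small tumours, against 3.89, 6.48 and 23.6 CPM in liver tissue. Every large tumour and 23 of 25 small tumours exceeded the highest liver tissue library, which was liver tissue 2; without it the highest was 9.86 CPM. Golm1 varied least among large tumours, with a standard deviation of 0.515 on the log2 scale, and its log2 fold change was 3.65 ± 0.24 in large and 3.64 ± 0.24 in small tumours. Of 14 genes of Golgi structure and trafficking, Golm1 included, 13 were fitted and 11 rose and 1 fell in large tumours, where 38.5% of all genes rose, with a median log2 fold change of 0.34, against 0.05 for all genes fitted. The next after Golm1 were the golgins Golga5 and Golga2, both at 0.48.

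Prom1 had 20.4, 32.3 and 78.1 CPM in large tumours and 2.08, 45.0 and 98.0 CPM in small tumours, against 1.68, 3.05 and 20.5 CPM in liver tissue. The groups were nearly separate, with 24 of 25 large and 22 of 25 small tumours above the highest liver tissue, and 3.17 ± 0.32 and 3.40 ± 0.32 as log2 fold changes. The other prominin gene, Prom2, rose by 2.06 in large and 3.31 in small tumours (edgeR, adjusted p = 0.00545 and 2.93e-05). Of 12 bile duct and progenitor markers, 11 were fitted and 5 rose and none fell in either tumour size, near the 38.5% and 34.7% of all genes that rose, led by Tspan8 (4.43 in large tumours), Krt23 (3.21) and Spp1 (2.70). The summed level of the 12 markers ran from 151 to 7850 CPM with a median of 1317 in large tumours, from 83.0 to 2588 with a median of 896 in small tumours, and from 98.8 to 721 with a median of 185 in liver tissue. The part of bile duct cells in the Prom1 difference was not tested.

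Ly6d had 5.05, 355 and 621 CPM in large tumours and 58.8, 233 and 572 CPM in small tumours, against 11.9, 26.1 and 76.4 CPM in liver tissue. It was the most abundant of the 9 per length of transcript, with a median of 477 CPM per kilobase of exon in large tumours, ahead of Tff3 at 140 and Spink1 at 120; the other 6 lay between 3.68 and 23.4. All but 1 large tumour and all but 3 small tumours exceeded the highest liver tissue, and the log2 fold change was 3.53 ± 0.36 in large and 3.08 ± 0.34 in small tumours. Of 12 LY6 family genes, 5 were fitted; Ly6c1, a surface protein of monocytes and endothelium, rose by 3.15 in large tumours, Ly6e rose by 0.24, Ly6a fell by 0.53, and Ly6c2 had a fold change of 0.62 that did not pass (edgeR, adjusted p = 0.0515). Of the 5 B cell markers fitted, Cr2 rose and 4 fell in large tumours, and 3 fell and none rose in small tumours; the part of B cells in the Ly6d difference was not tested.

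Psrc1 had 0.617, 42.7 and 82.3 CPM in large tumours and 0.640, 31.1 and 81.8 CPM in small tumours, against 0.270, 0.662 and 4.34 CPM in liver tissue. Tumours and liver tissue were separate but for 1 large and 2 small tumours, the libraries named above, and the log2 fold change of 5.32 ± 0.48 in large tumours was the fifth highest of 14538 genes. Its neighbours on the chromosome, the cadherin gene Celsr2 and the sortilin gene Sort1, rose by 2.42 and 1.08 in large tumours and by 2.83 and 0.81 in small tumours. All 20 mitotic spindle genes rose in both tumour sizes, with a median of 1.85 in large and 1.57 in small tumours, led in large tumours by Cenpf at 2.26, Prc1 at 2.24 and Tpx2 at 2.16.

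Sox4 had 2.64, 17.6 and 103 CPM in large tumours and 3.09, 14.4 and 47.5 CPM in small tumours, against 2.00, 3.68 and 23.3 CPM in liver tissue. Only 11 large and 5 small tumours exceeded the highest liver tissue, which was again liver tissue 2; without it that level was 10.4 CPM. The log2 fold change was 2.27 ± 0.31 in large and 1.86 ± 0.30 in small tumours, and the related Sox12 fell by 1.53 and 1.35. Of 13 TGF-beta pathway genes, 11 rose and 1 fell in large tumours and 10 rose and 1 fell in small tumours, where 38.5% and 34.7% of all genes rose; among those that rose were the ligand gene Tgfb2 at 1.90 and the receptor gene Tgfbr2 at 1.34 in large tumours.

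Akr1b8 had 1.31, 6.04 and 14.8 CPM in large tumours and 2.62, 5.79 and 20.9 CPM in small tumours, against 1.52, 4.18 and 6.66 CPM in liver tissue. In 11 of 25 large and 9 of 25 small tumours it exceeded the highest liver tissue, and 6 large and 4 small tumours were below its median, so its values went against the name of a strongly tumour-induced gene. Its log2 fold changes were 0.95 ± 0.21 in large and 1.12 ± 0.21 in small tumours. Its family all rose in both sizes, with Akr1b7 at 2.89, Akr1b3 at 1.64 and Akr1b10 at 0.86 in large tumours. Other genes hold 6.84% of the 36-base stretches of Akr1b8 transcripts, and Akr1b10 shares more of them than any other gene. The effect of these shared stretches on the counts of Akr1b8 and Akr1b10 was not tested. Of 11 target genes of NRF2, the factor that drives aldo-keto reductases under oxidative stress, 7 rose and 2 fell in large tumours and 6 rose and 2 fell in small tumours, against 38.5% and 34.7% of all genes rising, led by the cystine carrier gene Slc7a11 at 4.84.

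Erich4 had 0.0561, 21.3 and 40.4 CPM in large tumours and 0.587, 24.4 and 43.2 CPM in small tumours, against 0, 0.265 and 1.87 CPM in liver tissue. The upper libraries were clear of liver tissue in 22 of 25 tumours of each size, while large tumours 1 and 12 held only 0.934 and 0.941 CPM although their Golm1 and Ly6d were high. Its log2 fold changes were 5.26 ± 0.59 in large and 5.68 ± 0.59 in small tumours. Of 6 genes of the ERICH name, the other fitted one, Erich1, rose by 0.56 in large tumours.

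**Figure D1:**
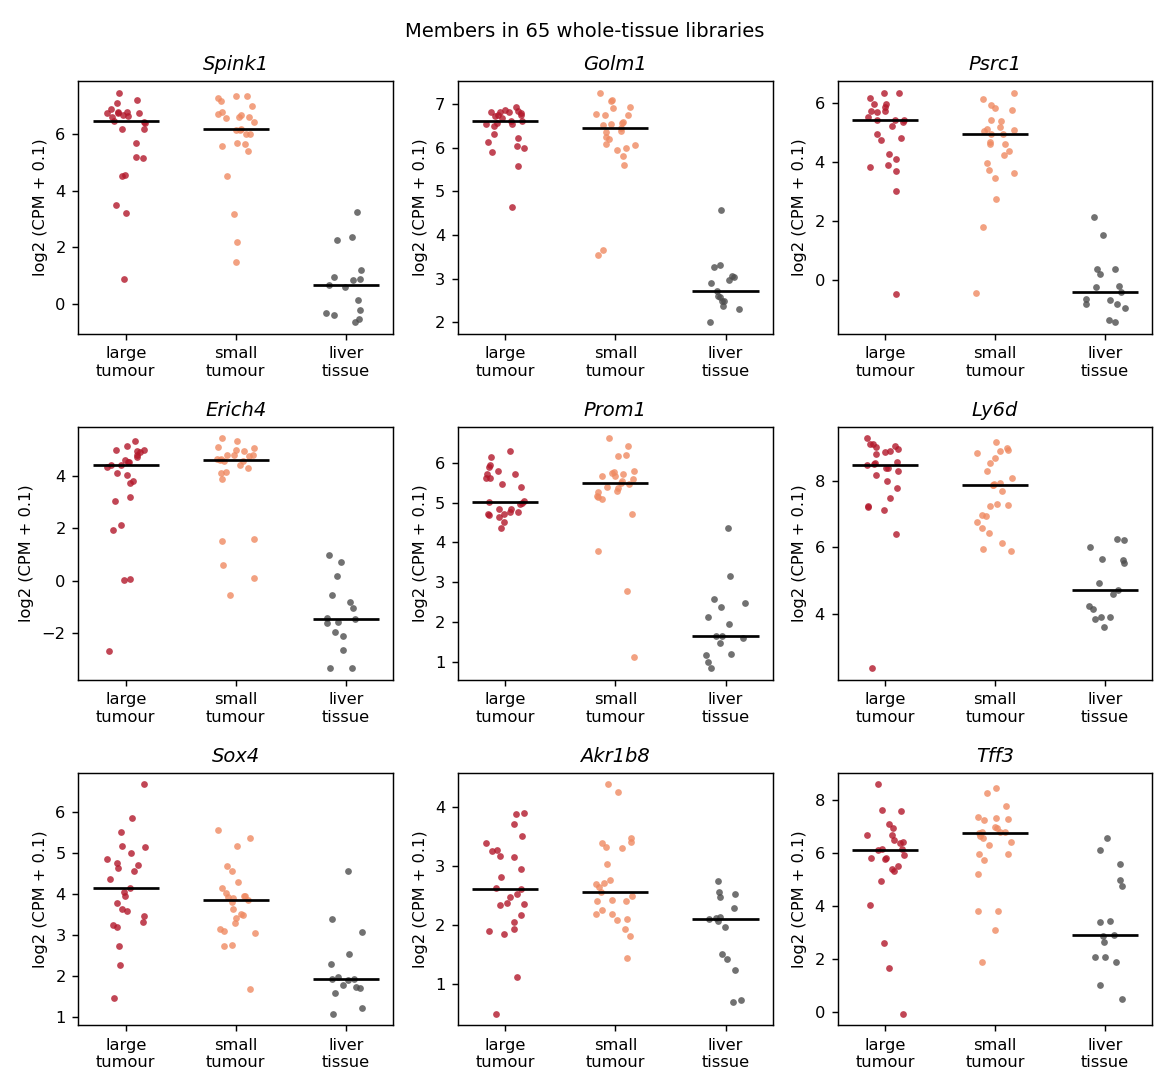
Level of each gene in 65 whole-tissue libraries, with large tumours, small tumours and liver tissue side by side and log2 (CPM + 0.1) on each vertical axis; points are libraries and bars are medians. Spink1, Golm1, Psrc1, Erich4, Prom1 and Ly6d show tumours above liver tissue with few exceptions, while Sox4, Akr1b8 and Tff3 overlap with it.

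Against the whole table, all 9 genes lay above liver tissue in both sizes by the same call that 38.5% of all genes met as higher in large tumours and 34.7% in small tumours. The choice of the genes fixed that count, so nothing is read from it. Their median log2 fold change was 3.53 in large and 3.40 in small tumours, against 0.05 and 0.03 for all genes fitted. Other markers also moved in these libraries: 6 of 10 hepatocyte markers rose and 3 fell in large tumours, Alb by 1.30, all 6 macrophage markers fell, led by the Kupffer cell gene Marco at -4.87, and 5 of 7 T cell markers rose in large tumours and none in small tumours. Their part in the differences of the 9 genes was not tested.

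The strand of the counting is not given in the sources used here, and some of the genes share bases with a gene on the other strand. For Golm1, 28.4% of 36-base stretches lie in Naa35 on the other strand. Naa35 had log2 fold changes of -0.16 in large and -0.20 in small tumours (edgeR, adjusted p = 0.000141 and 4.31e-06). For Sox4, 54.2% lie in Gm26735 on the other strand, whose highest library held 1.01 CPM. For Prom1, 6.36% lie in Gm16401 on the other strand, with at most 1.06 CPM. The remaining genes shared under 1% of their stretches on that strand. The part of reads from the other strand in the differences was not tested.

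Large and small tumours were compared next, a contrast the choice of the genes did not use, though it shares the tumour libraries. None of the 9 genes passed (edgeR quasi-likelihood test over 14538 genes, Benjamini-Hochberg adjusted p under 0.05), where 2.48% of all genes did; none had an unadjusted p under 0.05, and DESeq2 called none. The closest were Ly6d, with a log2 fold change of 0.45, a 95% interval from -0.07 to 0.97 and adjusted p = 0.361, and Sox4, with 0.41, an interval from -0.06 to 0.88 and adjusted p = 0.353. Golm1 had the narrowest range of the strongly differing genes, 0.01 with an interval from -0.33 to 0.36. Tff3 had -0.45 with an interval from -1.33 to 0.44, and Erich4 had -0.43 with an interval from -1.13 to 0.28. Spink1 (-0.16), Psrc1 (0.23), Prom1 (-0.23) and Akr1b8 (-0.17) had adjusted p between 0.628 and 0.842.

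Whether the genes rise and fall together from tumour to tumour was tested over all 36 pairs within each tumour size, with Pearson's r and Spearman's rho of log2 CPM, two-sided permutation tests and adjustment over 72 tests of each kind. A pair was called where both adjusted p-values were under 0.05, which held for 3 of 36 pairs in large tumours and 8 of 36 in small tumours, 2 of them in both. Golm1 and Erich4 moved together with r = 0.671 and rho = 0.710 in large tumours (permutation test, adjusted p = 0.00735 and 0.00302) and with r = 0.801 and rho = 0.784 in small tumours (0.000432 and 0.00108). Within sequencing runs their r was 0.774 and 0.867 in the 2 runs with 10 large tumours and 0.803 and 0.965 in the 2 with 10 small tumours. Erich4 and Prom1 had r = 0.545 and rho = 0.582 in large tumours (permutation test, adjusted p = 0.0122 and 0.0207) and r = 0.822 and rho = 0.603 in small tumours (0.000432 and 0.0148). Runs with 5 tumours of a size were not correlated on their own. With run means subtracted, Golm1 with Erich4 was no longer called in large tumours (r = 0.656, rho = 0.502), nor Erich4 with Prom1 in small tumours (r = 0.831, rho = 0.524), while the first pair was still called in small and the second in large tumours.

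The other called pairs were Sox4 with Akr1b8 in large tumours (r = 0.605, rho = 0.541) and, in small tumours, Spink1 with Golm1 and with Erich4, Golm1 with Psrc1 and with Ly6d, Psrc1 with Ly6d, and Psrc1 with Tff3. Psrc1 and Ly6d had r = 0.750 and rho = 0.788 in small tumours (permutation test, adjusted p = 0.000432 and 0.00108) and r = 0.831 and rho = 0.472 in large tumours (0.00223 and 0.0700), where the pair was not called; there r was 0.157 in 1 run of 10 tumours and 0.846 in the other. In large tumours it was called with run means subtracted (r = 0.813, rho = 0.641) and without S100a8-high libraries (r = 0.920, rho = 0.633). Psrc1 and Tff3 ran in opposite directions, with r = -0.527 and rho = -0.554 in small tumours (permutation test, adjusted p = 0.0286 and 0.0349). For Sox4 with Akr1b8, r was 0.645 in 1 run and 0.213 in the other. With run means subtracted, neither Sox4 with Akr1b8 nor Psrc1 with Tff3 was called (r = 0.388 and -0.428).

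Several pairs rested on the 3 tumours that were low in most genes. Without large tumour 16 the r of Golm1 with Erich4 was 0.423 in large tumours, and without small tumours 2 and 22 it was 0.545 in small tumours. After leaving out these 3 tumours, a choice made after seeing the data, 1 pair was called in large tumours (Erich4 with Prom1, r = 0.608) and 4 in small tumours, namely Golm1 with Erich4, Golm1 with Ly6d (r = 0.575), Psrc1 with Ly6d (r = 0.741) and Spink1 with Erich4 (r = 0.669). Without the 2 tumours farthest from the median of the first gene, r was 0.499 and 0.545 for Golm1 with Erich4, 0.509 and 0.621 for Erich4 with Prom1 and 0.741 for Psrc1 with Ly6d in small tumours. It was 0.451 for Sox4 with Akr1b8 and -0.444 for Psrc1 with Tff3.

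**Figure D2:**
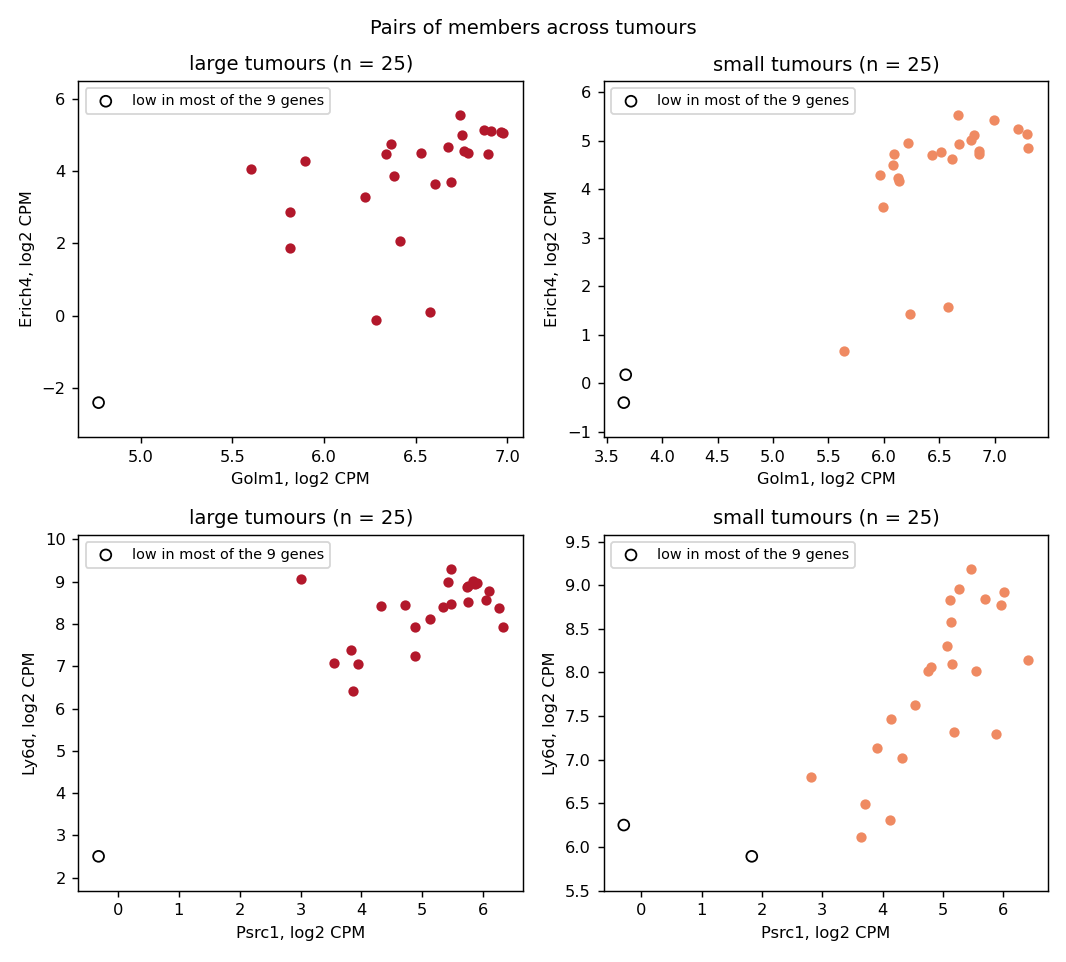
Erich4 against Golm1 (upper panels) and Ly6d against Psrc1 (lower panels) in 25 large and 25 small tumours, log2 CPM on both axes; each point is a tumour, and open circles are large tumour 16 and small tumours 2 and 22. The open circles lie at the low end of both genes, and the filled points still slope upward for Psrc1 and Ly6d in small tumours, where r was 0.741 without the open circles.

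The genes whose levels followed each of the 9 most closely were ranked by Spearman's rho over the 50 tumours, after the mean of each sequencing run and tumour size was subtracted, among 9944 genes; this is a description over libraries that share runs and may share animals, with no test. The closest single likeness was that of Nxn, a nucleoredoxin gene, to Erich4 (rho = 0.91), followed for Erich4 by Rogdi and Ctsz at 0.78. Psrc1 was followed by Zmat3 (0.90), Inka2 (0.86) and Phlda3 (0.86), and Ly6d by Cyp4f16 (0.80), Phlda3 (0.79) and Polk (0.75), so Phlda3 stood in both lists. Golm1 was followed by Scn8a (0.82), Itih5 (0.81) and Mpzl3 (0.80), and Spink1 by F2rl1 (0.81), Pglyrp1 (0.79) and Fgd3 (0.79). Sox4 was followed by the polycystin gene Pkd2 (0.81), Bicc1 (0.80) and Chrnb1 (0.76). Likeness was looser for Prom1, with Arnt2 (0.69), Akr1b7 and Abhd12 (0.61 each), for Tff3, with Cdhr5 and Ttr (0.63 each) and Tst (0.61), and for Akr1b8, with Lgmn (0.61), Crip2 (0.59) and Ppp1r18 (0.58).

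In sorted cells the 9 genes parted. Spink1, Erich4 and Tff3 were close to absent: over 61 neutrophil libraries they summed to 22, 38 and 19 counts, and over 73 T cell libraries to 13, 24 and 25 counts. Golm1 was counted in every sorted library, with a median of 80.7 CPM in T cells and 16.6 CPM in neutrophils. Prom1 was counted in all 61 neutrophil libraries, with a median of 5.20 CPM, but in 38 of 73 T cell libraries. Sorted cells were made into libraries by a different kit from tissue, so levels are not compared between the 2 kinds.

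**Figure D3:**
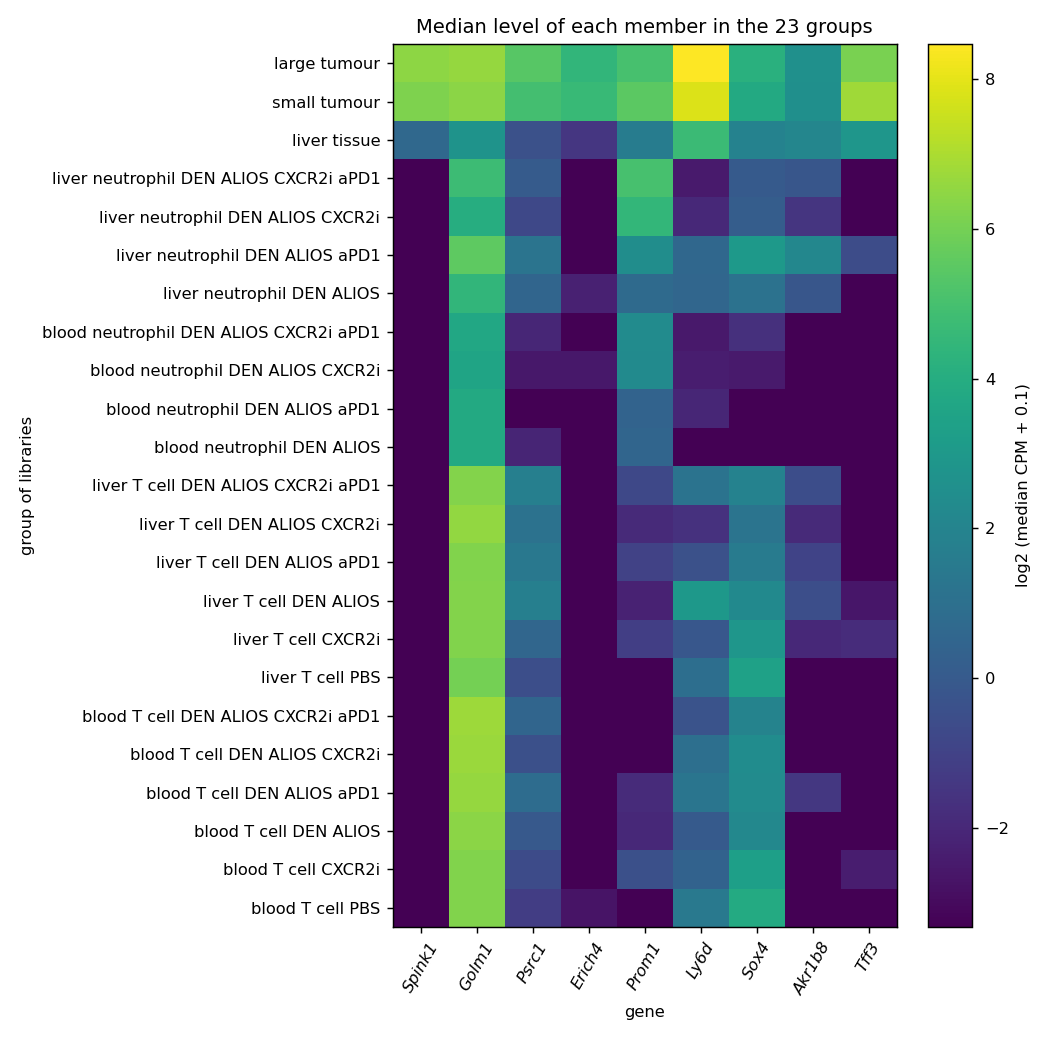
Median level of each gene in the 23 groups as log2 (median CPM + 0.1), groups down the side and genes along the bottom. Golm1 stays bright in T cells, Prom1 stands out in liver neutrophils under the CXCR2 inhibitor with or without anti-PD1, and Spink1, Erich4 and Tff3 are dark in most sorted groups.

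Prom1 in liver neutrophils differed between the treatment arms. It had 21.5, 33.1 and 68.3 CPM as lowest, median and highest library under the combination (n = 8), 2.38, 22.3 and 58.4 under the CXCR2 inhibitor (n = 10), and 2.05, 5.43 and 17.3 under anti-PD1 (n = 5), against 0.650, 1.57 and 3.89 in untreated mice (n = 6). All 8 combination libraries and 9 of 10 CXCR2 inhibitor libraries lay above every untreated library. All untreated libraries were in run set A, a group of sequencing runs, and all anti-PD1 libraries in B, so anti-PD1 and run set cannot be told apart. Of the CXCR2 inhibitor arm only library 1 was in A. Within run set A, Prom1 ran from 21.5 to 68.3 CPM in 5 combination libraries and from 0.650 to 3.89 CPM in 6 untreated ones. The log2 fold change of the combination against untreated was 4.21 ± 0.61, an 18.5-fold difference (edgeR quasi-likelihood test over 11945 genes, adjusted p = 0.000138). Of the 9 genes, 6 had enough counts to be fitted and Prom1 alone passed, where 10.8% of all genes passed in either direction and 5.66% were higher. Golm1 had a log2 fold change of 0.57 (adjusted p = 0.135), and Psrc1, Ly6d, Sox4 and Akr1b8 had adjusted p between 0.221 and 0.906.

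For the CXCR2 inhibitor alone the log2 fold change of Prom1 was 3.43 ± 0.72 (edgeR, adjusted p = 0.0406), where 0.142% of genes passed. That call was lost with RLE scaling (adjusted p = 0.0515), without the filter on low counts (0.0611), without shallow or mixed libraries (0.0775) and without libraries labelled vehicle or isotype (0.194). The combination call held under all 8 other settings tried for it, with log2 fold changes between 4.02 and 4.34.

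In blood neutrophils Prom1 was lower and the same arms were the higher ones. It had 1.34, 5.02 and 9.00 CPM under the combination (n = 10), 2.1, 4.93 and 10.5 under the CXCR2 inhibitor (n = 10) and 0.633, 1.27 and 3.20 under anti-PD1 (n = 5), against 0.864, 1.33 and 5.28 in untreated mice (n = 7). The arms overlapped. The log2 fold change was 1.29 ± 0.42 for the combination (edgeR, adjusted p = 0.0352, 14.9% of genes passing), a call lost without the filter (0.0697), without vehicle or isotype libraries (0.114) and in run set A alone (0.111), and 1.41 ± 0.50 for the CXCR2 inhibitor, which did not pass (adjusted p = 0.0836, 6.90% of genes passing). Golm1 passed in neither, with -0.23 and -0.33.

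Over 29 mice with both libraries, neutrophils from the liver had more Prom1 than neutrophils from the blood of the same mouse, with medians of 18.2 and 3.20 CPM, in 23 of 29 mice. The log2 fold change of liver against blood was 2.00 ± 0.28 for Prom1 (edgeR with the mouse as a block, adjusted p = 1.15e-07) and 0.95 ± 0.12 for Golm1 (1.22e-08, higher in 26 of 29 mice; in untreated mice alone its adjusted p was 0.0972). These 2 were the ones of the 9 with enough counts in that fit, and 68.0% of all genes passed, so both passing is close to the background. For Prom1 the difference varied with treatment: the liver library was the higher one in 8 of 8 mice under the combination, 9 of 10 under the CXCR2 inhibitor, 4 of 5 under anti-PD1 and 2 of 6 untreated. By arm the fold change was 2.85 ± 0.39, 2.13 ± 0.35, 1.40 ± 0.53 and -0.09 ± 0.55. The difference between the combination and untreated mice in that liver effect was 2.94 ± 0.68 (edgeR interaction term, adjusted p = 0.0158), where 2.43% of genes passed; for the CXCR2 inhibitor it was 2.22 ± 0.66 and did not pass (adjusted p = 0.0968, 0.561% of genes passing). This fit by arm was added after the liver values had been seen. It held 6 of the 9 genes, of which 5 passed under the combination (45.6% of all genes passing), 4 under the CXCR2 inhibitor (40.5%), 6 under anti-PD1 (54.7%) and 4 in untreated mice (43.2%), all higher in liver. Sox4 and Akr1b8 passed in every arm, with adjusted p up to 0.0406 and 0.0338, and Psrc1 in all but the CXCR2 inhibitor arm (edgeR, adjusted p = 0.0975 there). Psrc1, Ly6d, Sox4 and Akr1b8 passed the filter on low counts through liver libraries. Their highest levels in blood neutrophils were 1.24, 6.25, 1.28 and 1.05 CPM. That filter favoured liver as the higher site, so nothing is read from their direction, their calls or the counts of passing genes by arm. Under the CXCR2 inhibitor, Akr1b8 was at 5.36 and 9.55 CPM in liver libraries 4 and 6 and at most 0.555 CPM in the others.

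**Figure D4:**
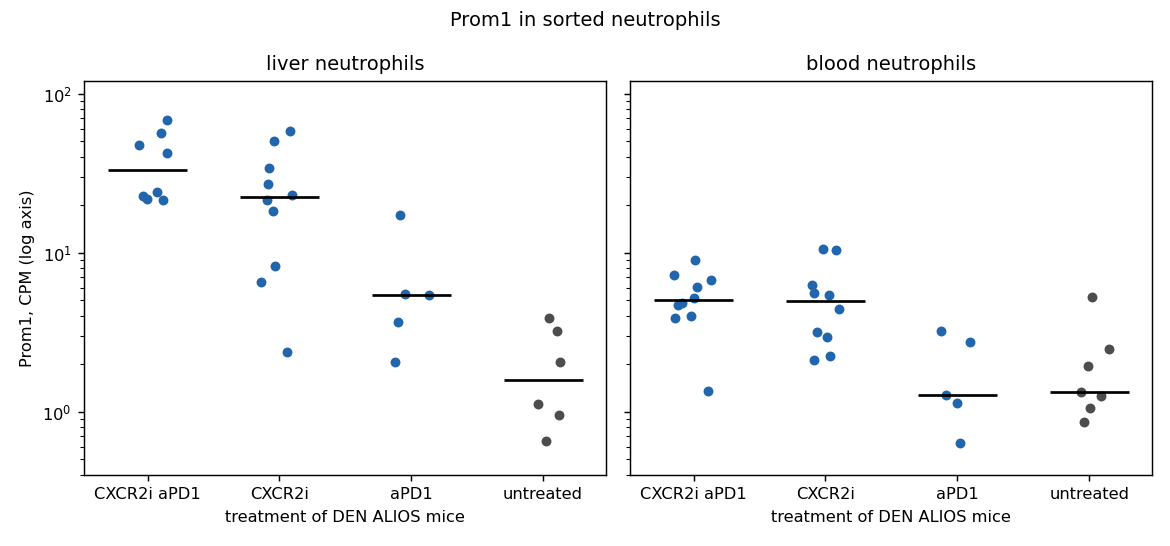
Prom1 in neutrophils of the liver (left) and blood (right) by treatment of DEN ALIOS mice, CPM on a log axis; points are libraries and bars are medians. In the liver the combination libraries lie between 21.5 and 68.3 CPM, above every untreated library, which lie between 0.650 and 3.89 CPM.

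Other transcripts moved in the same libraries. The summed level of 7 neutrophil markers ran from 14311 to 45503 CPM under the combination and from 2340 to 26609 CPM in untreated mice, and Ly6g rose by 3.17. All 6 B cell markers and 2 T cell markers fell in the combination against untreated mice. Of all genes, 10.8% passed there in either direction and 5.66% were higher. The B cell sum was at most 18.0 CPM under the combination, against up to 306 CPM in untreated mice. Of 20 mitotic spindle genes 10 rose, led by Cenpf at 3.23, while Psrc1 had -0.20 (adjusted p = 0.906). The 12 bile duct and progenitor markers summed to medians of 704 and 705 CPM in combination and untreated mice, and Spp1 among them fell by 3.69. In blood neutrophils the same sum had medians from 545 to 687 CPM over the arms. The duct markers Krt19 and Epcam were at most 1.72 CPM each in combination liver libraries, and at most 2.22 and 1.60 CPM in untreated ones. Krt7, another duct marker of that list, ran from 1.44 to 32.8 CPM in combination liver libraries and from 1.30 to 14.5 CPM in untreated ones. In untreated blood neutrophils Krt7 ran from 17.3 to 45.4 CPM. The genes most like Prom1 over 29 liver neutrophil libraries, with the mean of each arm subtracted, were Lta4h (rho = 0.88), Zmpste24 (0.83), Prkci, Zfp445 and Mbnl3 (0.80 each). Lta4h encodes an enzyme of leukotriene B4 synthesis. The specific granule genes Ltf and Camp had rho of 0.70 each on that scale. Without that subtraction rho was 0.92 for Ltf, 0.91 for Camp and 0.96 for Lta4h. Ltf ran from 5783 to 15858 CPM in combination liver libraries and from 43.7 to 865 CPM in untreated ones. In blood neutrophils Ltf ran from 155 to 2972 CPM under the combination and from 17.9 to 134 CPM in untreated mice. The part of these in the Prom1 difference was not tested.

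The highest levels of other genes in neutrophils were in liver libraries that also held transcripts of other cells. Ly6d, Sox4, Akr1b8 and Psrc1 were highest in liver libraries 2 and 4 of the anti-PD1 arm, at 28.9 and 22.6 CPM for Ly6d and 49.3 and 56.7 CPM for Sox4. In those 2 libraries the hepatocyte markers summed to 3872 and 3266 CPM, the T cell markers to 436 and 944 CPM and the endothelial markers to 776 and 1368 CPM, against an arm median of 856, 16.9 and 149.9 CPM. In untreated blood neutrophils, Ly6d had no count in any of 7 libraries, Sox4 had 4 counts and Psrc1 had 5. Psrc1 was also at 3.17 CPM in untreated liver library 4, where the T cell and B cell markers summed to 4.44 and 2.54 CPM. The share of other cells in the levels was not tested.

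In T cells, the measured levels of Psrc1 and Golm1 differed between sites. For Psrc1, liver T cells had 1.47, 2.83 and 5.69 CPM as lowest, median and highest of 22 mice, against 0, 0.908 and 2.63 CPM in their blood T cells, and the liver library was the higher one in 22 of 22 mice. The log2 fold change was 1.53 ± 0.23 (edgeR with the mouse as a block, 11980 genes, adjusted p = 3.67e-06). Psrc1 passed the filter on low counts through liver libraries. As that filter favoured liver as the higher site, nothing is read from its direction or its call. Golm1 fell slightly, by 0.21 ± 0.07 (adjusted p = 0.0146), with medians of 78.7 CPM in liver and 97.9 CPM in blood T cells and a lower liver value in 19 of 22 mice; without the block its adjusted p was 0.0784. Sox4 had -0.21 (adjusted p = 0.486). Of the 9 genes 4 had enough counts to be fitted and 2 passed, where 64.0% of all genes passed.

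For Ly6d in T cells the count of mice with more in the liver is given by arm. Over all 22 mice its log2 fold change of liver against blood was 0.96 ± 0.56 and did not pass (edgeR, adjusted p = 0.141), with the liver library higher in 12; without libraries labelled vehicle or isotype it was 1.46 and passed (adjusted p = 0.0309), and without the mouse as a block it was 1.48 and passed (0.0236). In untreated mice the liver library was higher in 6 of 6, with medians of 7.75 CPM in liver and 1.06 CPM in blood, and a fit of those mice alone gave 2.91 (edgeR, adjusted p = 0.000203). It was higher in 4 of 5 mice under the combination, 1 of 6 under the CXCR2 inhibitor and 1 of 5 under anti-PD1. The difference between arms was not tested. In untreated liver T cells the B cell markers summed to between 5.52 and 115 CPM, and Ly6d was 13.8 and 8.03 CPM in the libraries at those ends.

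**Figure D5:**
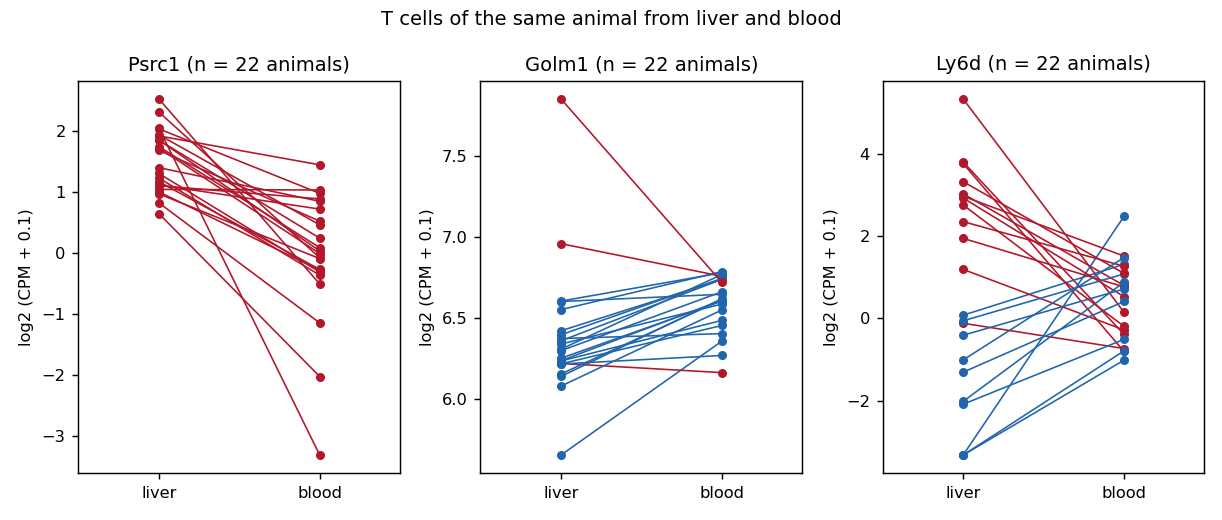
Psrc1, Golm1 and Ly6d in T cells from liver (left) and blood (right) of the same 22 DEN ALIOS mice, log2 (CPM + 0.1) on each vertical axis; each line joins the 2 libraries of a mouse, red where liver was higher and blue where blood was. All 22 Psrc1 lines are red, 19 of 22 Golm1 lines are blue, and Ly6d has 12 red and 10 blue.

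Untreated DEN ALIOS mice were set against PBS mice in liver T cells. Psrc1 had 2.07, 3.36 and 4.05 CPM in DEN ALIOS mice (n = 6) and 0, 0.613 and 1.46 CPM in PBS mice (n = 8), groups that did not overlap, and rose by 1.64 ± 0.38 (edgeR, 12008 genes, adjusted p = 0.00568). Ly6d had 3.74, 7.75 and 13.8 CPM in DEN ALIOS mice and 0, 1.83 and 5.42 CPM in PBS mice, and rose by 1.85 ± 0.64 (adjusted p = 0.0443), a call lost without the filter (0.0764), without shallow or mixed libraries (0.0623) and without vehicle or isotype libraries (0.0647). Sox4 had 1.75, 4.73 and 7.04 CPM in DEN ALIOS mice and 1.36, 10.8 and 17.8 CPM in PBS mice, and fell by 1.36 ± 0.39 (adjusted p = 0.0178). Golm1 had -0.07 (adjusted p = 0.929). Of the 4 genes fitted 3 passed, where 23.4% of all genes did. Psrc1 passed the filter on low counts through DEN ALIOS libraries, and Ly6d mainly through them. As that filter favoured DEN ALIOS mice as the higher group, nothing is read from their direction or from this count. The shallowest of the 8 PBS libraries, 3 and 4, held 337110 and 440785 counts. Psrc1 had no count in either, at a depth where a single count would fall within the DEN ALIOS range. Library 3 also gave the highest Sox4 of the PBS mice. Summed levels of markers of other cells also differed in these libraries. The bile duct and progenitor sum ran from 35.6 to 135 CPM in DEN ALIOS mice, against 1.77 to 15.6 CPM in PBS mice, without overlap. In that list Krt19 and Krt7 were at most 0.979 and 0.392 CPM in DEN ALIOS mice and 2.71 and 0.538 CPM in PBS mice. Epcam ran from 2.35 to 11.2 CPM against 0.558 to 5.93 CPM. In blood T cells the same sum had medians of 58.1 CPM in untreated DEN ALIOS mice and 7.89 CPM in PBS mice. In liver T cells, medians were 48.7 against 14.3 CPM for macrophage, 19.4 against 44.8 CPM for B cell, 10.9 against 38.8 CPM for neutrophil and 32.6 against 121 CPM for hepatocyte markers, DEN ALIOS mice before PBS mice. Their part in these differences was not tested. The 2 groups were sequenced in different runs, so the model and the run cannot be told apart.

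The CXCR2 inhibitor against untreated DEN ALIOS mice gave no call in liver T cells for the 4 genes fitted, where 0.669% of genes passed (edgeR); DESeq2 called none of the 4 and 1 had an unadjusted p under 0.05. Golm1 had 1.04 ± 0.37 (unadjusted p = 0.0114, adjusted p = 0.134), Psrc1 -1.08 ± 0.56 (0.0687, adjusted 0.305), Ly6d -3.06 ± 2.19 (adjusted p = 0.461) and Sox4 -0.25 ± 1.41 (adjusted p = 0.941). The intervals were wide, from 0.31 to 1.76 for Golm1 and from -7.34 to 1.22 for Ly6d. All untreated liver T cell libraries were in run set A and none of the CXCR2 inhibitor libraries were. The run sets of those arms were joined only through the combination arm. Library 3 of the CXCR2 inhibitor arm held the highest Ly6d (9.89 CPM), Sox4 (30.4 CPM) and Akr1b8 (12.7 CPM) of that arm, and its endothelial, neutrophil and macrophage markers summed to 1172, 912 and 434 CPM, against arm medians of 83.4, 9.96 and 23.3 CPM.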

How the data were processed

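Raw read counts per gene were deposited by the authors as one table for all libraries. Per the submitters' processing notes, the tools were FastQC 0.11.8, Trim Galore 0.6.4, HISAT2 2.1.0 and HTSeq 0.11.2 with GRCm38; per the labels' protocols, reads were 36 bases from both ends, tissue went through a stranded mRNA kit and sorted cells through a low-input total RNA kit. The counting strand is not given in the sources used here. The 5 summary entries (63.2% of all entries) were left out. Libraries held 12055434 to 21850190 counts (tissue, 65), 580113 to 9256224 (neutrophils, 61) and 337110 to 10755816 (T cells, 73).

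Fits used edgeR 4.0.16 (R 4.3.3): TMM scaling, its filter at 10 counts, robust quasi-likelihood tests and Benjamini-Hochberg adjustment at 0.05, with the sequencing run (tissue), the run set (sorted cells, treatment) or the mouse (liver against blood) as a term. The mouse comes from the library names, and libraries of a mouse deviated together (mean correlation 0.284 in T cells and 0.132 in neutrophils, against -0.062 and -0.017 for other pairs). Alternatives were other scaling, no filter, DESeq2 1.42.0, and leaving out libraries, runs or terms. Standard errors are the fold change over the root of F. On simulated counts the large against small tumour fit (13888 genes) recovered 100% of 2-fold changes. The combination fit in liver neutrophils (9718 genes) recovered 43% of them, and both recovered 100% of 4-fold changes. These rates hold for the spread that was simulated and are not the power for each gene described. For large against small tumours, the intervals of Tff3 (-1.33 to 0.44, standard error 0.45) and Erich4 (-1.13 to 0.28) included a 2-fold lower level in large tumours. Those of the other genes described lay within 2-fold either way. Among 1116 pairs of libraries within a group none agreed within counting noise (lowest chi-square per degree of freedom 2.72).

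The genes and lists were chosen with earlier results of these data known. All 9 genes are described; from each list at most 3 genes are named by fold change among those passing in large tumours, or by lowest p, and relatives of the 9 whatever their value. One gene that this rule names in the TGF-beta list is not reported here.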

Additional observations from a re-analysis of the deposited data

Results flagged for a closer look

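In 64 groups of 4 to 10 sorted-cell libraries and the genes counted there, 14 held a library far from the others by Dixon's ratio. Of these, 9 were in liver T cells. The limits used give about 1 group of 20 by chance for normally distributed values. Low counts in CPM are not so distributed, and the groups share libraries, so the 14 are not set against that rate. In liver T cells under the CXCR2 inhibitor, the highest Ly6d (9.89 CPM, next 0.859) and Sox4 (30.4 CPM, next 4.15) came from library 3, whose endothelial markers summed to 1172 CPM. The highest Golm1 there (231 CPM, next 124) was in library 4 and the highest Psrc1 (5.69 CPM, next 2.38) in library 5, in neither of which those markers stood out (138 and 75.4 CPM). Under the combination, library 3 of liver T cells held the highest Ly6d (40.1 CPM, next 7.71) and Sox4 (13.8 CPM, next 3.94), together with Prom1 at 17.7 CPM and hepatocyte markers at 4459 CPM. Under anti-PD1, library 3 held the highest Ly6d (5.00 CPM, next 0.954) and Sox4 (8.56 CPM, next 3.39), with hepatocyte markers at 719 CPM. In untreated mice library 2 held the lowest Golm1 (50.1 CPM, next 74.3), with T cell markers at 1414 CPM, the lowest of that arm.

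In blood T cells Ly6d was far from the others in 1 library under the CXCR2 inhibitor (5.46 CPM, next 2.03) and 1 under the combination (2.75 CPM, next 1.01). In neutrophils the libraries were Golm1 under the CXCR2 inhibitor in liver (43.5 CPM, next 23.4), Prom1 under anti-PD1 in liver (17.3 CPM, next 5.50), which was library 2 with hepatocyte markers at 3872 CPM, and Prom1 in untreated blood (5.28 CPM, next 2.46).

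The liver against blood difference of Prom1 in neutrophils differed between combination and untreated mice by 2.94 on the log2 scale (edgeR interaction term, adjusted p = 0.0158), as the report gives.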

How the results depend on the processing

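Counts of passing genes moved by over 1.5 times under some settings. Against liver tissue, single runs gave 6409 (run 1) and 5288 (run 3) genes for large tumours in place of 10253, and 6217 and 4540 for small tumours in place of 9558. Large against small tumours gave 360 genes, against 0, 8 and 2 in runs 1, 2 and 3 alone, 200 without the libraries with S100a8 above 10 CPM (1 large tumour and 3 liver tissue) and 570 with DESeq2; none of these called any of the 9 genes. For liver against blood, neutrophils gave 9907 genes without the filter and 1954 in untreated mice alone in place of 6421, and T cells 4760 in untreated mice alone in place of 7669. For the combination in liver neutrophils (1288 genes) DESeq2 gave 2176, leaving out shallow or mixed libraries 2176 and run set A alone 307; in blood neutrophils (1527) no filter gave 973, leaving out vehicle and isotype libraries 789 and run set A alone 993. For the CXCR2 inhibitor, liver neutrophils (17) gave 29 without the filter, 326 with DESeq2, 645 without the run set and 1 without vehicle and isotype libraries; blood neutrophils (705) gave 1770, 1185 without the run set and 91 without those libraries; liver T cells (87) gave 149 with RLE scaling, 9 without the filter, 756 with DESeq2, 986 without the run set and 1 without those libraries. Called pairs in large tumours (3) were 5 without the S100a8-high libraries and 1 without the tumours that stand apart; in small tumours (8) they were 4. The cause of these changes was not tested.

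Title numbers did not pair the libraries, whose deviations correlated at -0.045 in tissue, 0.035 in liver neutrophils, 0.047 in liver T cells and -0.008 in blood neutrophils. With the number as a replicate block, large against small tumours gave 123 genes, the combination in liver neutrophils 736, the CXCR2 inhibitor 0 in liver neutrophils and 0 in liver T cells, and DEN ALIOS against PBS 1550 in place of 2804. Under it the DEN ALIOS calls had adjusted p of 0.0723 for Psrc1, 0.134 for Ly6d and 0.112 for Sox4, and Prom1 under the CXCR2 inhibitor in liver neutrophils had 0.498.

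Values that changed sign were past the threshold in no setting. For large against small tumours they were Spink1 (0.157 in run 2), Golm1 (-0.0020 without the filter, -0.361 in run 1, -0.0050 in run 2, -0.071 without the libraries that stand apart, -0.020 without the S100a8-high ones), Psrc1 (-0.119 in run 1, -0.273 in run 2), Ly6d (-0.065 in run 1), Sox4 (-0.048 in run 3) and Tff3 (0.436 in run 2). Sox4 in T cells, liver against blood, was 0.092 without vehicle and isotype libraries and 0.206 without the mouse as a block. Ly6d under the CXCR2 inhibitor in liver neutrophils was 0.243 with the title number as a replicate block. Without the run set, Akr1b8 in liver neutrophils was 0.568 (combination) and 0.710 (CXCR2 inhibitor), Golm1 there -0.101 (CXCR2 inhibitor), and Sox4 in liver T cells 0.553 (CXCR2 inhibitor); without vehicle and isotype libraries that last value was 0.547. For the combination in liver neutrophils, Golm1 and Sox4 passed under 1 setting each, Golm1 at 0.76 without vehicle and isotype libraries (edgeR, adjusted p = 0.0437) and Sox4 at -3.82 without shallow or mixed libraries (0.0227). Depth limits Spink1, Erich4 and Tff3 in sorted cells, where 3 counts stand for 0.279 to 8.90 CPM.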
